A study of Rattus norvegicus with 23 samples.

Results

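The comparison described here is that of the left ventricle of 20-month-old spontaneously hypertensive rats (SHR) with that of 20-month-old Wistar-Kyoto rats (WKY). It rests on the 7 arrays that the labels place in these groups, 4 from SHR and 3 from WKY, of 23 arrays in the series, and on all 7280 probe sets that passed a filter on dim signals out of 8740 non-control probe sets. The series profiled left ventricular total RNA of both strains at 12, 16 and 20 months on Affymetrix U34A oligonucleotide arrays. SHR rats are inbred and become hypertensive without any intervention, and WKY rats are their related normotensive control strain. The labels give no treatment, sex, blood pressure or measure of heart function, so the groups are defined by strain and age alone. They list heart failure as a keyword. Whether the arrays of a group stem from different animals is not stated, so p-values reflect only the spread among these samples, and that spread may be technical.

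A ventricle that works against raised pressure for a long time is known to thicken, and in SHR this hypertrophy can end in heart failure at an advanced age. The muscle cells of such a ventricle are known to switch on natriuretic peptides and skeletal alpha-actin, genes of the fetal heart, and to lower the mitochondrial burning of fatty acids that fuels the healthy adult heart. Fibroblasts between the muscle cells lay down collagen, which stiffens the wall. The genes of these processes form the lists described below.

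All values are probe set intensities on a linear scale as the authors deposited them, and levels are means ± SD over 4 SHR and 3 WKY arrays unless stated otherwise. Differences are SHR minus WKY on the log2(intensity + 32) scale, with standard errors and Benjamini-Hochberg adjusted p-values from a limma fit over all 23 arrays. An adjusted p below 0.05 is called a difference, and the number of arrays limits its precision. Because 32 was added, the log2 difference understates the change of dim genes.

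Strain and processing cannot be told apart at 20 months. All 4 SHR arrays were hybridized on a single day with chip lot 1 and cocktail 1, and all 3 WKY arrays on another day with lot 2 and cocktail 2, as numbered here from the instrument records. Arrays of the same strain correlated at 0.978 to 0.991 and arrays of different strains at 0.960 to 0.970 across probe sets, and no 2 arrays held the same values throughout. The 3' over 5' ratio of control probe sets, which rises as RNA or its copies become shorter, was 1.03 to 1.37 in SHR and 1.55 to 1.98 in WKY for beta-actin. It was 1.15 to 1.20 in SHR and 1.36 to 1.43 in WKY for Gapdh, and 2.30 to 2.80 in SHR and 3.41 to 4.64 in WKY for hexokinase. None of these ratios overlapped between the strains, and their part in the results below was not tested. Spiked bacterial transcripts, read by 9 probe sets, were brighter in SHR, with a median log2 difference of 0.55 and overlap between the strains for each of them.

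**Figure D1:**
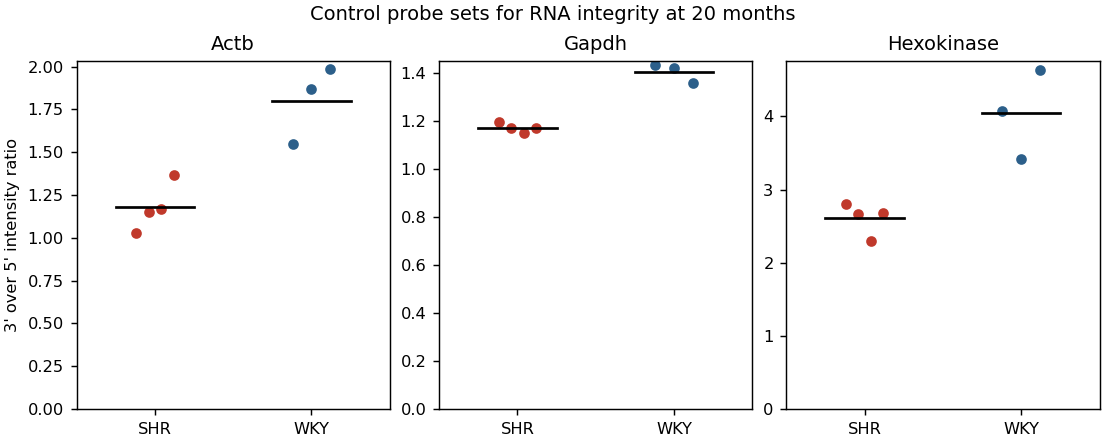
Ratio of the 3' to the 5' control probe set on each array at 20 months for beta-actin, Gapdh and hexokinase, with points for single arrays and bars for means. The 4 SHR arrays lie below the 3 WKY arrays for each of these transcripts, with beta-actin at 1.03 to 1.37 in SHR and 1.55 to 1.98 in WKY.

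At 20 months 1263 of 7280 probe sets (17.3%) differed between the strains, 764 higher in SHR (10.5%) and 499 lower (6.85%). Of the 1263, 1131 also showed no overlap between the 4 SHR and the 3 WKY arrays. The preponderance of higher calls rested on the scaling: 60.5% of calls were higher with the deposited scaling, 48.9% after quantile normalization, 53.4% after cyclic loess and 44.6% after median centring. It was 48.6% when probe sets under a mean intensity of 50 were left out. Counted as genes, each by its brightest probe set, 755 of 4172 (18.1%) differed, 421 higher in SHR (10.1%) and 334 lower (8.01%). The median log2 difference over all 4172 genes was 0.02. On the first principal component of the 7 arrays, with 56.3% of their variance, the strains stood apart. The arrays of the strains did not overlap for 1082 of the 4172 genes (25.9%), called or not.

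**Figure D2:**
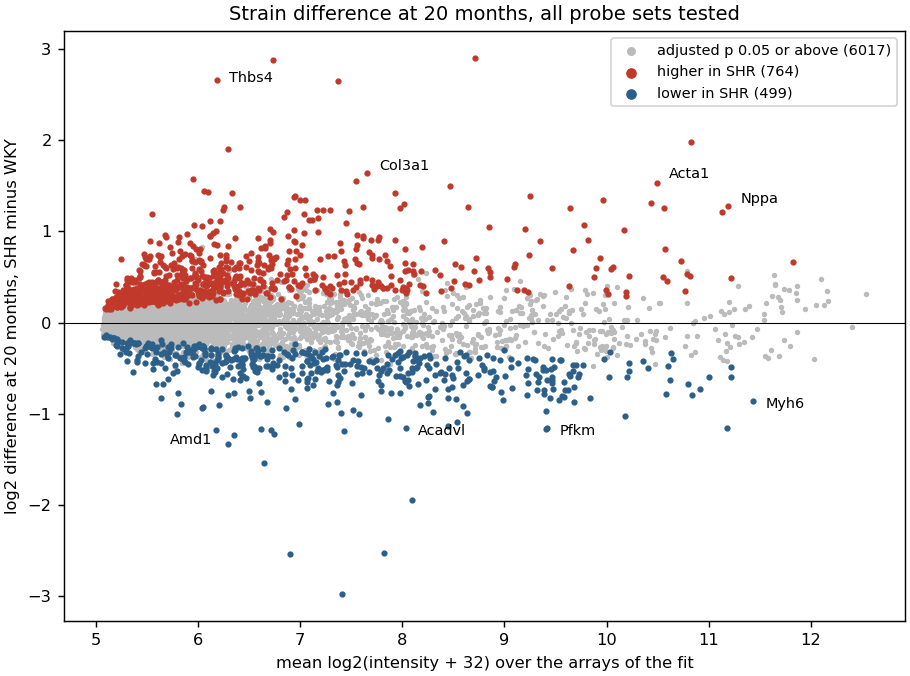
Log2 difference between SHR and WKY at 20 months against the mean log2(intensity + 32) over the 23 arrays of the fit, for 7280 probe sets. Red points were higher in SHR (764), blue points lower in SHR (499), and the 6017 grey points had an adjusted p of 0.05 or above.

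Among probe sets with a single gene symbol, Thbs4 stood at the top of the genes that were higher in SHR. Thbs4 encodes thrombospondin-4, a matricellular protein of the stressed heart. Its intensity was 194, 192, 232 and 239 on the SHR arrays, against 5.9, 7.8 and 6.9 on the WKY arrays. The groups were far apart, with the WKY arrays close to the bottom of the intensity range (214 ± 25 in SHR and 6.87 ± 0.95 in WKY; log2 difference 2.66 ± 0.17 SE, adjusted p = 3.35e-11). The next genes by size included the collagen gene Col3a1 (1.64), the collagen crosslinking enzyme Loxl1 (1.55), skeletal alpha-actin Acta1 (1.53), lysozyme Lyz2 (1.42), the membrane protein Emp1 (1.42) and the kinase A interacting protein Akip1 (1.38). Mgp, matrix Gla protein, an inhibitor of calcification, differed by 1.35. Maoa, the monoamine oxidase that breaks down noradrenaline and serotonin, differed by 1.26. Its intensity was 1165, 1207, 1269 and 1198 on the SHR arrays, against 406, 576 and 490.0 on the WKY arrays. All 3 other probe sets of Akip1 and the other probe set of Maoa were called in the same direction.

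Genes among those with the largest falls in SHR were of other kinds. Amd1, which makes decarboxylated S-adenosylmethionine for polyamine synthesis, had intensities of 14.4, 22.7, 21.8 and 21.8 on the SHR arrays, against 84.5, 96.8 and 76.3 on the WKY arrays. No SHR array came near a WKY array (log2 difference -1.18 ± 0.09 SE, adjusted p = 1.98e-09). Dhrs7c, a short-chain dehydrogenase of the sarcoplasmic reticulum, differed by -1.18, and the glutathione transferases Gstm7 and Gstm2 by -1.22 and -0.99. Prkaca, the catalytic alpha subunit of protein kinase A, had intensities of 223, 279.6, 252 and 221 on the SHR arrays, against 492, 426 and 651 on the WKY arrays. Its 2 probe sets were both lower in SHR (-0.99 and -0.32). Cidea, a lipid droplet protein, differed by -0.96 and the peroxisomal membrane protein Pxmp2 by -1.0. Klf9, a transcription factor induced by glucocorticoids, differed by -0.99, while its other probe set did not pass.

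Genes of wall stress and the fetal programme were higher in SHR where they differed. In this list 7 of 15 measured genes were higher and 0 lower in SHR, with a median log2 difference of 0.35. Over all genes 10.1% were higher and 8.01% lower, with a median of 0.02, and the lists below are read against the same shares. Without SHR array 3 the wall stress list had 4 higher and 1 lower, as it had after median centring. It had 4 higher and 0 lower with hybridization day as a random block, and also with only the 7 arrays of 20 months. The 7 genes were Acta1, Nppa, Nppb, Myl4, Acta2, Csrp3 and Ace. The call of Acta2 was lost in 9 of 20 alternatives, that of Ace in 9 of 19 and that of Csrp3 in 8 of 20. Acta1, the skeletal form of sarcomeric actin, had intensities of 2104, 2422, 2275 and 2326 on the SHR arrays, against 774, 730.0 and 807 on the WKY arrays. The SHR arrays were about alike and all far above the WKY arrays, with a ratio of means of 2.96 (log2 difference 1.53 ± 0.12 SE, adjusted p = 9.32e-10). Nppa, which encodes atrial natriuretic peptide, had intensities of 3016, 3698, 4338 and 4875 on the SHR arrays, against 1733, 1697 and 1386 on the WKY arrays. SHR array 1 was the lowest of its group and still above every WKY array (log2 difference 1.28 ± 0.19 SE, adjusted p = 2.75e-05). All 3 other Nppa probe sets were higher in SHR as well, by 1.98, 1.31 and 1.22. Nppb, which encodes brain natriuretic peptide, had intensities of 1099, 1125, 1108 and 1235 on the SHR arrays, against 665, 881 and 689 on the WKY arrays. Its arrays did not overlap either (1142 ± 63 in SHR and 745 ± 119 in WKY; log2 difference 0.60 ± 0.16 SE, adjusted p = 0.00742).

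The promoters of Acta1, Nppa and Nppb are shown because these genes were higher in SHR together and are the usual read-outs of ventricular load. Each sequence is the 250 bases before the transcript start, 5' to 3' on the gene's strand, from RefSeq on the GRCr8 build, and lies at chr19:68784195-68784444 on the minus strand for Acta1, at chr5:163711934-163712183 on the plus strand for Nppa and at chr5:163699758-163700007 on the plus strand for Nppb. Capitals mark matches to 3 motifs: the M-CAT core CATTCC or its reverse complement GGAATG, the TATA motif TATAAA on the gene's strand, and the CArG box, the binding motif of serum response factor, on either strand.
Acta1: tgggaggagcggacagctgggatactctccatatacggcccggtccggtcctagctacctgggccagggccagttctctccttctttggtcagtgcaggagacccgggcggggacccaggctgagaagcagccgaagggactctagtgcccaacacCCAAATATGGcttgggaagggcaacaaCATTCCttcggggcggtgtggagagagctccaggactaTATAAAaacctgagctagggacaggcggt
Nppa: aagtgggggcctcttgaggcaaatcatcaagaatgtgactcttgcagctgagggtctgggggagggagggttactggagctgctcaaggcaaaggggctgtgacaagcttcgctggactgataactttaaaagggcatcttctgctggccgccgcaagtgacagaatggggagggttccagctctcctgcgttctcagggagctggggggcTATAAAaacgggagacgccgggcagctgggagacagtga
Nppb: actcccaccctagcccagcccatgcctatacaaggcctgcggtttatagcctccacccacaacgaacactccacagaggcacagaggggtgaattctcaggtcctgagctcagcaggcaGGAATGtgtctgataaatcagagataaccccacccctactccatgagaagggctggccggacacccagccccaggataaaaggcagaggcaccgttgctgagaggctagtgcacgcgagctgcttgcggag
The Acta1 window held all 3 motifs, the Nppa window the TATA motif alone, and the Nppb window the M-CAT core alone. Of 33469 promoters of the same length, 12.1% held the M-CAT core, 8.06% the TATA motif and 1.5% the CArG box, and matches to different motifs did not overlap in these windows. Of the 15 measured genes of the list, 12 had a promoter in the table, 4 with the M-CAT core and 1 with the CArG box. These matches describe the letters in the window and say nothing of whether a factor was bound.

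Contractile genes of the adult ventricle moved less uniformly. In the sarcomere list 4 of 23 measured genes were higher (17.4%) and 3 lower (13.0%) in SHR, against 10.1% and 8.01% of all genes. The list's median log2 difference was 0.03. Myh6, the fast alpha-myosin heavy chain of the adult rat ventricle, had intensities of 1989, 2179, 2342 and 1717 on the SHR arrays, against 3754, 3376 and 4121 on the WKY arrays. No SHR array reached a WKY array, and the SHR mean was 0.548 times the WKY mean (log2 difference -0.86 ± 0.14 SE, adjusted p = 5.63e-05). A further Myh6 probe set was also lower (-0.83, adjusted p = 0.0204), but another stood at 0.54, adjusted p = 0.0908. Myh7, the slow beta-myosin that is raised in many models of cardiac overload, was not higher in SHR. Its brighter probe set had intensities of 3012, 3429.8, 4008 and 3305 on the SHR arrays, against 4652, 3969.7 and 5021 on the WKY arrays, with overlap (-0.40, adjusted p = 0.0665). Its other probe set was lower in SHR (-0.73, adjusted p = 0.00013). All of these myosin probe sets but the last are of a type whose probes may match several family members, so Myh6 and Myh7 signals may be shared. Ckmt2, the mitochondrial creatine kinase of striated muscle, was lower (-0.67, adjusted p = 0.000277). Ldb3, a Z-disc protein, was lower too (-0.63, adjusted p = 0.0118). The Z-disc protein Pdlim5 was higher from a dim level (39.2 ± 9.98 in SHR and 11 ± 5.5 in WKY, log2 difference 0.72, adjusted p = 1.38e-05). Cardiac troponin T, Tnnt2, did not pass (2980.4 against 2891, log2 difference 0.03, adjusted p = 0.909).

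Calcium handling genes differed in both directions. In this list 7 of 31 measured genes were higher (22.6%) and 6 lower (19.4%) in SHR, against 10.1% and 8.01% of all genes. The list's median log2 difference was 0.08. Without WKY array 3 or WKY array 4, 4 were higher. Atp2a2, the calcium pump SERCA2 that refills the sarcoplasmic reticulum, had intensities of 2501, 3547, 3859 and 3353 on the SHR arrays, against 4028, 3577 and 4205 on the WKY arrays on its bright probe set, with overlap (-0.26, adjusted p = 0.295), while a dim probe set of the same gene was higher in SHR (0.47, adjusted p = 0.00184). Pln, phospholamban, the inhibitor of that pump, was higher in SHR, at 636 ± 37.3 in SHR and 496 ± 16.6 in WKY (log2 difference 0.34 ± 0.10 SE, adjusted p = 0.0216), a call lost in 5 of 20 alternatives. Slc8a1, the sodium-calcium exchanger of the plasma membrane, was higher (0.60, adjusted p = 0.00296), as were the calsequestrin gene Casq2 (0.33) and the T-type calcium channel gene Cacna1g (0.52). Jph2, which holds the calcium release units in place, was lower, at 326 ± 56.9 in SHR and 543 ± 64.7 in WKY (-0.70, adjusted p = 0.00118). The L-type channel subunits Cacnb2 and Cacna2d1 were also lower, with differences of -0.53 and -0.54, and S100a1, a calcium sensor that supports contraction, differed by -0.43.

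Matrix genes were mostly higher in SHR where they differed. In this list 27 of 54 measured genes were higher and 2 lower in SHR, with a median log2 difference of 0.30. The fibrillar collagens led the list. Col1a1 had intensities of 567, 383, 460.2 and 373 on the SHR arrays, against 223, 197 and 98.4 on the WKY arrays, and its 3 other probe sets were called the same way. Col3a1 had intensities of 427, 376, 459 and 366 on the SHR arrays, against 150.3, 106 and 78.3 on the WKY arrays, and Col1a2 differed by 1.35, adjusted p = 2.31e-06. No SHR array overlapped a WKY array for any of these collagens, nor for the minor fibrillar collagens Col5a1 (0.59) and Col5a2 (0.84).

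Several enzymes and binding proteins of collagen fibres were higher too. Loxl1, which crosslinks elastin and collagen, had intensities of 307, 313, 347 and 349 on the SHR arrays, against 114, 92.6 and 70.5 on the WKY arrays. Plod2, which hydroxylates collagen lysines for crosslinks, stood at 49.9 ± 1.2 in SHR and 16.5 ± 2 in WKY (0.76, adjusted p = 3.63e-08). Lox itself was dim and differed less (20.3 ± 5.6 in SHR and 10.8 ± 3 in WKY; 0.29, adjusted p = 0.0316), and its call was lost in 10 of 19 alternatives. The small proteoglycans Bgn and Dcn, which bind collagen and growth factors, differed by 1.30 and 0.68. Fn1, fibronectin, stood at 134 ± 16.8 in SHR and 61.9 ± 10.1 in WKY (0.82, adjusted p = 9.05e-06). Ltbp2, a microfibril protein, was at 23.3 ± 2.1 in SHR and 2.1 ± 0.67 in WKY (0.70, adjusted p = 5.77e-08), and its second probe set did not pass.

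Several matricellular and remodelling genes moved the same way. Postn, periostin, which marks activated fibroblasts, had intensities of 67.4, 40.0, 58.7 and 62.7 on the SHR arrays, against 13.1, 6.4 and 1.4 on the WKY arrays. It was dim in WKY and clearly above in SHR (log2 difference 1.20 ± 0.12 SE, adjusted p = 1.09e-07). Spp1, osteopontin, stood at 32 ± 4.13 in SHR and 7.33 ± 7.27 in WKY (0.72, adjusted p = 4.51e-06). The protease inhibitors Timp1 and Timp2 differed by 0.99 and 0.65, the gelatinase Mmp2 by 0.38 and the collagen-cleaving cathepsin Ctsk by 0.77. The 2 genes of the list that were lower in SHR were the laminin chain Lamb2 (-0.49, adjusted p = 0.0115) and the heparan sulfate proteoglycan Sdc4 (-0.50, adjusted p = 0.0313), whereas the laminin chain Lamc1 was higher (0.98). Sparc is uncertain, since its brightest probe set was higher (0.49) and another was lower (-0.38).

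**Figure D3:**
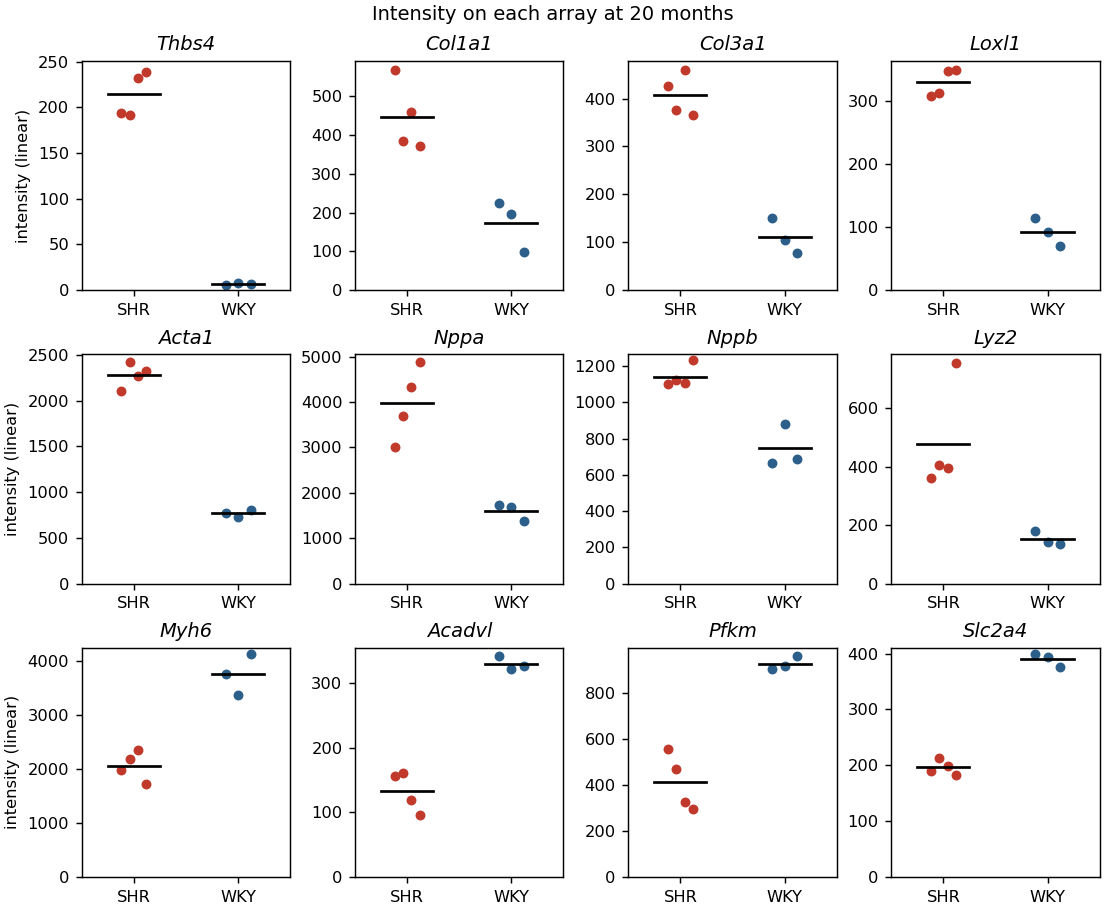
Intensity of 12 genes on each array at 20 months, on linear axes that start at 0, with points for single arrays and bars for means. The first 8 genes (Thbs4 to Lyz2) lie higher on all 4 SHR arrays than on the 3 WKY arrays, and the last 4 (Myh6, Acadvl, Pfkm and Slc2a4) lie lower on all 4 SHR arrays.

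Markers of fibroblasts and macrophages were higher alongside the matrix genes. The fibroblast markers include Col1a1, Col1a2, Col3a1 and Dcn, described above, so their count, median and sum partly repeat the matrix result. Of the fibroblast markers, 8 of 12 measured genes were higher and 0 lower in SHR, with a median log2 difference of 0.51. Their summed intensity was 3627 to 4342 in SHR and 1999 to 2348 in WKY. In whole ventricle, more cells of a type and more RNA per cell cannot be told apart. Besides the collagens, Thy1, a surface glycoprotein of fibroblasts and T cells, stood at 40.3 ± 5.14 in SHR and 11.5 ± 0.76 in WKY (0.73, adjusted p = 7.73e-06), the intermediate filament Vim differed by 0.54 and S100a4 by 0.48.

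Of the macrophage and monocyte markers, 8 of 12 measured genes were higher and 0 lower in SHR, with a median log2 difference of 0.37. Their summed intensity was 860.2 to 1348 in SHR and 364 to 475 in WKY. Lyz2, lysozyme of myeloid cells, had intensities of 361, 405, 396 and 753 on the SHR arrays, against 178, 141 and 137 on the WKY arrays. SHR array 4 was far above the other SHR arrays, and all 4 were above WKY (log2 difference 1.42 ± 0.25 SE, adjusted p = 0.000158). Lgals3, galectin-3, a lectin of activated macrophages, had intensities of 111, 113, 132 and 121 on the SHR arrays, against 78.2, 52.7 and 51.7 on the WKY arrays (0.71, adjusted p = 6.78e-05). The receptor gene Csf1r (3.0 against 3.07) and the pan-leukocyte gene Ptprc (15.3 against 9.67) were dim in both strains and did not pass. None of the 12 measured markers was at 0 on all arrays, and 7 were under an intensity of 32 on average in both strains.

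Inflammation and complement genes were mostly higher where they differed. In this list 13 of 53 measured genes were higher and 3 lower in SHR, with a median log2 difference of 0.13. The complement genes formed the clearest group. C1qb, part of the first complement component, had intensities of 170.2, 212, 213 and 260.2 on the SHR arrays, against 71.9, 59.1 and 85.7 on the WKY arrays (log2 difference 1.23 ± 0.15 SE, adjusted p = 1.23e-06). C1s, its protease, stood at 155 ± 19.6 in SHR and 64.7 ± 8.46 in WKY (0.95, adjusted p = 2.63e-06), C1r at 0.63 and their inhibitor Serping1 at 0.89 on the log2 scale. Of genes of antigen presentation, the class II chain RT1-Da (0.95, adjusted p = 0.000605) and the immunoproteasome subunit Psmb8 (0.72, adjusted p = 8.97e-06) were higher, and the peptide transporter Tap1 was lower (-0.41, adjusted p = 0.0151). The class II genes Cd74 and RT1-Bb each had probe sets called in both directions, so no direction is given for them. The chemokine Ccl2 was higher from a dim level (35.1 ± 5.49 in SHR and 14.6 ± 5.35 in WKY; 0.53, adjusted p = 0.000298). Tgfb1, the growth factor best known for driving fibrosis, did not pass (49 against 39.7, log2 difference 0.17, adjusted p = 0.479), while the dim Tgfb2 was higher (25.6 ± 4.74 in SHR and 4.97 ± 1.2 in WKY; 0.64, adjusted p = 0.000694).

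Genes of fatty acid uptake and oxidation were lower in SHR where they differed. In this list 0 of 41 measured genes were higher and 17 lower in SHR, with a median log2 difference of -0.29. Without WKY array 4 there were 1 higher and 15 lower. The 17 genes included enzymes of each step of the mitochondrial spiral. Acadvl, the very-long-chain acyl-CoA dehydrogenase that opens it, had intensities of 156, 161, 119 and 95.9 on the SHR arrays, against 342, 322 and 326 on the WKY arrays. The highest SHR array was below every WKY array, and the SHR mean was 0.403 times the WKY mean (log2 difference -1.16 ± 0.14 SE, adjusted p = 1.02e-06). Ech1, an auxiliary enzyme for unsaturated fatty acids, had intensities of 343, 418, 363 and 362 on the SHR arrays, against 944, 847 and 832 on the WKY arrays (log2 difference -1.17 ± 0.13 SE, adjusted p = 2.76e-07). The medium- and short-chain dehydrogenases Acadm and Acads differed by -0.66 and -0.77, the trifunctional protein genes Hadha and Hadhb by -0.74 and -0.79, and the thiolase Acaa2 by -0.80. Of the carnitine shuttle, Cpt2 differed by -0.82, adjusted p = 3.64e-06 and Cpt1b, its muscle-type entry enzyme, by -0.49, adjusted p = 0.0142. Acsl1, which activates fatty acids, was lower as well (-0.70, adjusted p = 0.00239). The lipid-binding Fabp3 (-0.23, adjusted p = 0.298), the lipase Lpl (-0.13, adjusted p = 0.438) and the receptor Ppara (-0.11, adjusted p = 0.421) did not pass.

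Oxidative phosphorylation and citrate cycle genes were likewise lower where they differed. In this list 0 of 49 measured genes were higher and 22 lower in SHR, with a median log2 difference of -0.37. Of complex I, Ndufv2, a subunit of the NADH-binding part, had intensities of 749, 781, 558 and 708 on the SHR arrays, against 1205, 1637 and 1516 on the WKY arrays. The SHR arrays were all below the WKY arrays (log2 difference -1.02 ± 0.15 SE, adjusted p = 1.80e-05). The complex I genes Ndufs7, Ndufb5 and Ndufb8 differed by -0.81, -0.82 and -0.63, though a second Ndufb5 probe set did not pass. Ndufa6 is uncertain, because its other probe set was higher in SHR. Of the later complexes, succinate dehydrogenase Sdha differed by -0.56, Uqcrc2 of complex III by -0.47, the complex IV subunits Cox7b and Cox8b by -0.74 and -0.78, and the ATP synthase subunits Atp5f1a, Atp5pb and Atp5pf by -0.47, -0.53 and -0.58. Of the citrate cycle, Dlst of the oxoglutarate dehydrogenase complex had intensities of 403, 380.1, 347 and 269 on the SHR arrays, against 736, 581 and 635 on the WKY arrays (-0.85, adjusted p = 0.000102). The isocitrate dehydrogenases Idh2 and Idh3g also passed, while citrate synthase Cs stood at 153 against 199 (-0.32, adjusted p = 0.0674). Mdh1, the cytosolic malate dehydrogenase and not the mitochondrial one of the cycle, passed as well.

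Of the cardiomyocyte markers, 2 of 16 measured genes were higher and 2 lower in SHR (12.5% each), against 10.1% and 8.01% of all genes. Their median log2 difference was -0.20. Their summed intensity was 31777 to 46088 in SHR and 41806 to 51105 in WKY, with overlap. The median was -0.10 without SHR array 1. None was higher without SHR array 2, WKY array 2 or WKY array 3, and 2 were higher and 5 lower after quantile normalization. Myl2, the ventricular regulatory light chain, stood at 5600.2 against 5693 (-0.05, adjusted p = 0.885) and Tnni3, cardiac troponin I, at 2441 against 2811 (-0.21, adjusted p = 0.585).

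**Figure D4:**
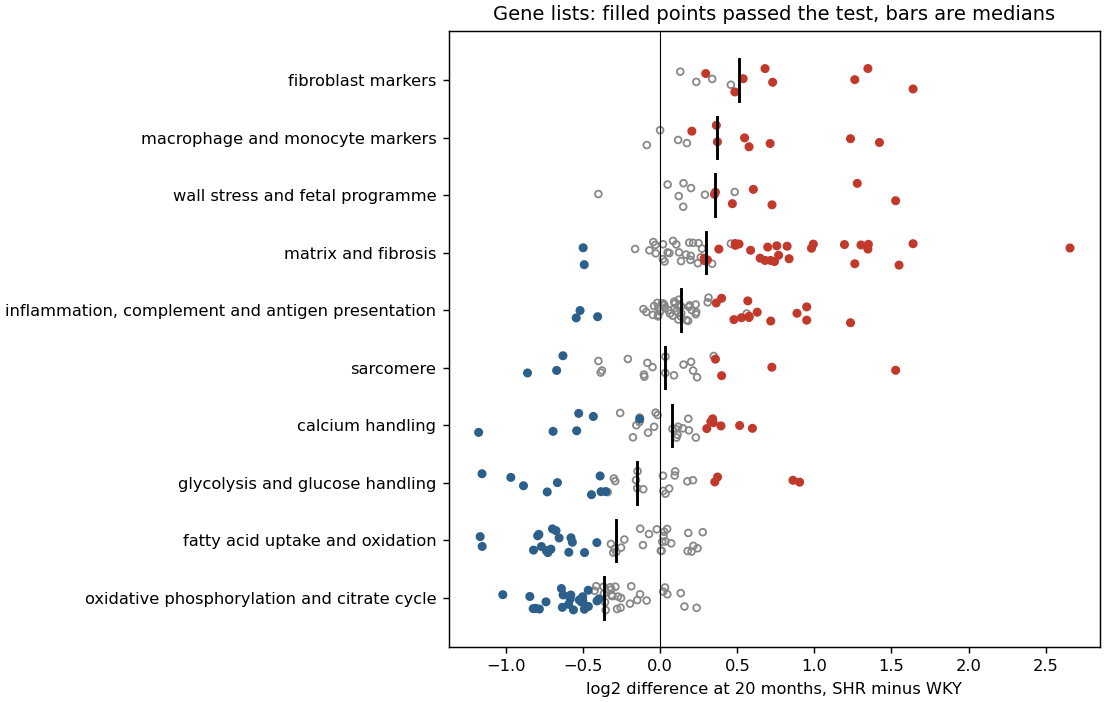
Log2 difference between SHR and WKY at 20 months for the measured genes of 10 lists, a point per gene and a bar at the median. Red and blue points were higher and lower in SHR and open points did not pass, with medians of 0.30 for the matrix list, -0.29 for fatty acid oxidation and -0.37 for oxidative phosphorylation.

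Glycolysis and glucose genes differed in both directions, in places between forms of the same enzyme. In this list 4 of 28 measured genes were higher and 9 lower in SHR, with a median log2 difference of -0.15. Slc2a4, the insulin-responsive glucose transporter GLUT4, had intensities of 190.2, 212, 199 and 183 on the SHR arrays, against 399, 394 and 376 on the WKY arrays. The SHR mean was 0.504 times the WKY mean (log2 difference -0.89 ± 0.17 SE, adjusted p = 0.000655), and its second probe set did not pass. Pfkm, the muscle form of phosphofructokinase, was lower, with intensities of 556, 468, 324 and 297 on the SHR arrays, against 903, 918 and 963 on the WKY arrays (log2 difference -1.16 ± 0.16 SE, adjusted p = 8.62e-06), though its second probe set did not pass either. Pfkp, the platelet form, was higher, with intensities of 90.5, 61.9, 71.6 and 54.6 on the SHR arrays, against 27.2, 24.9 and 18.7 on the WKY arrays (log2 difference 0.86 ± 0.11 SE, adjusted p = 2.72e-06). Pfkl, the liver form, was higher by 0.37, adjusted p = 0.00773. Of the mutases, Pgam1, found in many tissues, was higher (0.35, adjusted p = 0.0218) and the muscle form Pgam2 was lower (-0.39, adjusted p = 0.0039). Eno1, the enolase of non-muscle tissues, was higher (0.90, adjusted p = 2.33e-07), and the muscle enolase Eno3 did not pass (-0.16, adjusted p = 0.506). The glycogen phosphorylases Pygm and Pygb were both lower, with differences of -0.73 and -0.97. Pdk2, a kinase that restrains pyruvate oxidation, was lower (-0.67, adjusted p = 0.000428).

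Amino acid genes differed often and in both directions. In this list 8 of 34 measured genes were higher and 11 lower in SHR, with a median log2 difference of 0.02. The 8 higher genes became 4 without WKY array 2 or WKY array 4, and 5 without SHR array 1 or WKY array 3. Enzymes that break down branched-chain amino acids were among the lower genes. Bckdha, a subunit of the dehydrogenase that commits them to oxidation, had intensities of 116, 143, 114 and 100.1 on the SHR arrays, against 255, 312 and 277 on the WKY arrays (log2 difference -1.06 ± 0.14 SE, adjusted p = 4.51e-06). The partner subunit Bckdhb differed by -0.61, the mitochondrial aminotransferase Bcat2 by -0.78, Ivd by -0.39 and Pcca by -0.48. Aldh6a1, which acts on valine, went the other way (0.60, adjusted p = 0.00779). The aspartate aminotransferases Got1 and Got2 were lower, with differences of -0.74 and -0.82, and glutamine synthetase Glul was higher (0.46). The polyamine genes also split. Odc1, the ornithine decarboxylase that starts the pathway, was lower (-0.35, adjusted p = 0.0208) beside Amd1. Oaz2, an antizyme that marks the decarboxylase for breakdown, had intensities of 2076, 1514, 1874 and 2092 on the SHR arrays, against 629, 792 and 894 on the WKY arrays, with all SHR arrays above all WKY arrays (log2 difference 1.26 ± 0.17 SE, adjusted p = 5.15e-06).

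Antioxidant genes went both ways. In the oxidative stress list 7 of 42 measured genes were higher and 7 lower in SHR (16.7% each), against 10.1% and 8.01% of all genes. The list's median log2 difference was -0.02. Without WKY array 2 or WKY array 4, 4 were higher. Gpx3, the secreted glutathione peroxidase, had intensities of 1124, 949, 1626 and 1867 on the SHR arrays, against 663, 562 and 642 on the WKY arrays (log2 difference 1.08 ± 0.19 SE, adjusted p = 0.000179). The extracellular superoxide dismutase Sod3 (0.74, adjusted p = 0.00301) and haem oxygenase Hmox1 (0.65, adjusted p = 0.000103) were higher too. The mitochondrial peroxiredoxin Prdx3 (-0.59, adjusted p = 0.0048) and aldehyde dehydrogenase Aldh2 (-0.50, adjusted p = 0.00678) were lower. Sod1 is uncertain: of its probe sets, Y00404_s_at was higher by 1.27, while M25157mRNA_i_at and M21060_s_at were lower, with differences of -0.62 and -0.40.

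Proteolysis genes differed in both directions. In this list 7 of 38 measured genes were higher (18.4%) and 11 lower (28.9%) in SHR, against 10.1% and 8.01% of all genes. The list's median log2 difference was -0.10. Without WKY array 3 there were 5 higher and 4 lower, and without SHR array 3 there were 7 higher and 6 lower. The lysosomal cathepsins Ctss, Ctsb, Ctsh and Ctsl were higher, by 1.19, 0.94, 0.41 and 0.35. Ctss, which is abundant in macrophages, had intensities of 184, 172, 166 and 202 on the SHR arrays, against 60.8, 66.8 and 55.5 on the WKY arrays (log2 difference 1.19 ± 0.14 SE, adjusted p = 1.11e-06). The proteasome genes Psma6, Psma7, Psmb1, Psmb2, Psmb5, Psmc2 and Psmc5 and the activator genes Psme1 and Psme2 were lower, with differences between -0.35 (Psmb2) and -0.60 (Psme2). Trim63, a muscle-specific ubiquitin ligase of atrophy, was lower as well (-0.45, adjusted p = 0.00488). Nedd4, a ubiquitin ligase for membrane proteins, was higher (0.71, adjusted p = 0.00638).

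Ion channel and pump genes were more often lower than higher. In this list 2 of 34 measured genes were higher and 7 lower in SHR, with a median log2 difference of -0.06. Without WKY array 2 there were 0 higher and 4 lower. Atp1b1, the beta subunit of the sodium pump, had intensities of 645, 520.1, 539 and 439 on the SHR arrays, against 1056, 1008 and 890.3 on the WKY arrays (log2 difference -0.85 ± 0.12 SE, adjusted p = 8.10e-06), but neither of its 2 other probe sets was called. Kcnj11, the pore of the ATP-sensitive potassium channel, was lower (-0.42, adjusted p = 0.017), as were the anion exchanger Slc4a3 (-0.65, adjusted p = 0.000475), the chloride transporter Clcn3 (-0.63, adjusted p = 0.00319) and the water channel Aqp1 (-0.55, adjusted p = 0.00341). Kcne1, a subunit of the slow delayed rectifier, was higher, with intensities of 216, 158, 118 and 182 on the SHR arrays, against 45.3, 106 and 37.4 on the WKY arrays (log2 difference 1.12 ± 0.34 SE, adjusted p = 0.0213). One WKY array lay near the lowest SHR array for it. Kcnh2 is uncertain, as its probe sets were called in opposite directions.

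Signalling genes are read against the same 18.1% of all genes that differed, 10.1% higher and 8.01% lower. In the adrenergic, renin-angiotensin and endothelin list 4 of 34 measured genes were higher and 1 lower in SHR, with a median log2 difference of -0.01. Ace, the angiotensin-converting enzyme, was dim and higher in SHR (44.5 ± 9.01 in SHR and 27.7 ± 4.8 in WKY; 0.35, adjusted p = 0.0254). Gnai2, an inhibitory G protein subunit, was lower (-0.47, adjusted p = 0.00923), and Hsd11b1, which regenerates active glucocorticoid, was higher (210.4 ± 44.9 in SHR and 108 ± 17.5 in WKY; 0.78, adjusted p = 0.00934). Agt, angiotensinogen (15.9 against 20.8), and the receptor genes Adrb1 (9.05 against 10.9) and Agtr1a (7.6 against 13.1) were dim and did not pass. Without WKY array 4 this list had 2 higher and 2 lower. In the growth factor list 8 of 51 measured genes were higher and 4 lower in SHR, with a median log2 difference of 0.07. There were 5 higher and 2 lower without WKY array 3. Fgf1, a fibroblast growth factor, stood at 71 ± 11.3 in SHR and 32.5 ± 2.4 in WKY (0.67, adjusted p = 0.000153), Igfbp6 differed by 0.49 and the cardiomyocyte-expressed Vegfb by -0.35.

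The remaining lists are read against the 10.1% of all genes that were higher and the 8.01% that were lower. Of the ribosomal protein genes 3 of 42 measured genes were higher and 2 lower in SHR, with a median log2 difference of 0.06, and with 1 array left out 1 to 5 were higher and 1 to 4 lower. In the heat shock list 4 of 28 measured genes were higher and 1 lower in SHR, with a median log2 difference of 0.02. In the apoptosis list 3 of 21 measured genes were higher and 2 lower in SHR, with a median log2 difference of 0.07. Among immediate early genes 4 of 28 measured genes were higher and 1 lower in SHR, with a median log2 difference of 0.13. Without WKY array 3, 1 immediate early gene was higher. Only 2 heat shock genes were higher without SHR array 2 or 3 or without any 1 of the WKY arrays. Of the clock genes, 1 of 9 measured genes were higher and 0 lower in SHR, with a median log2 difference of 0.03. Of the chaperones, the mitochondrial Hspe1 was lower (-0.66, adjusted p = 0.00354) and the endoplasmic reticulum chaperone Hsp90b1 higher (0.48, adjusted p = 0.00321). The survival gene Bcl2l1 (0.49, adjusted p = 0.000209) and the p53 regulator Mdm2 (0.54, adjusted p = 0.000103) were higher. Of 13 measured genes known to vary in sequence or copy number between SHR and other strains, 5 were higher and 1 lower in SHR. The higher ones were Gstm1, Srebf1, Plat, Hsd11b1 and Hmox1, and the lower one was the dim Camk2n1 (2.5 ± 0.92 in SHR and 14.3 ± 4.17 in WKY). Without SHR array 1, WKY array 2 or WKY array 4, 3 of the 13 were higher. Ephx2, in the same list, did not pass on its brightest probe set (0.09, adjusted p = 0.76), while its probe set X60328_g_at was higher in SHR (0.38, adjusted p = 0.00548).

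Markers of other cell types gave a mixed picture, read against the 10.1% of all genes that were higher and the 8.01% that were lower. Of the endothelial markers 2 of 11 measured genes were higher and 2 lower in SHR, with a median log2 difference of 0.01. Cav1, the caveolin of endothelial and other cells, had intensities of 83.8, 56.9, 93.4 and 46.9 on the SHR arrays, against 16.9, 10.6 and 16.5 on the WKY arrays (log2 difference 1.11 ± 0.16 SE, adjusted p = 1.43e-05), and Pecam1, an endothelial adhesion molecule, differed by 0.46. The lower endothelial markers included the water channel Aqp1, described above with the ion channels. The summed endothelial markers overlapped between the strains, at 551 to 689 in SHR and 582 to 712 in WKY. Of the smooth muscle markers, 1 of 10 was higher, Acta2 (0.47, adjusted p = 0.0292), with overlap, and none without SHR array 1, SHR array 3, WKY array 3 or WKY array 4. The smooth muscle markers summed to 1966 to 2384 in SHR and 1727 to 1887 in WKY. Of the lymphocyte markers 4 of 15 measured genes were higher and 0 lower in SHR, with a median log2 difference of 0.04. The higher ones, Cd4, Thy1, Il2rb and Cd37, were dim, the brightest of them being Il2rb at 43.1 ± 1.1 in SHR and 18 ± 3.12 in WKY. The call of Cd37 was lost in 7 of 19 alternatives. The summed lymphocyte markers were 238 to 262 in SHR and 149 to 170.1 in WKY. Of the nerve and Schwann cell markers 6 of 18 measured genes were higher and 0 lower in SHR, with a median log2 difference of 0.14, and their sum was 542 to 629 in SHR and 371 to 405 in WKY. Among them Pmp22, a myelin protein that fibroblasts also make, stood at 168 ± 15.2 in SHR and 91.6 ± 11.1 in WKY (0.69, adjusted p = 6.10e-05). Ncam1, a neural adhesion molecule, stood at 39.9 ± 11.8 in SHR and 6.97 ± 1.7 in WKY (0.87, adjusted p = 2.85e-05). The second probe sets of both did not pass. Adipocyte markers, 2 higher and 2 lower of 16, summed to 1818 to 2010.1 in SHR and 2152 to 2284 in WKY. Slc2a4, described above with the glucose genes, is in this list and accounts for part of that gap. None of the markers in these lists was at 0 on all arrays, and the part of these cell types in the results was not tested. Of the skeletal muscle markers, Myh1 alone was higher (139 ± 15.6 in SHR and 53.2 ± 11.3 in WKY; 1.01, adjusted p = 1.96e-06).

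Atrial markers bear on Nppa, since atrial tissue is rich in that peptide. Of these, 5 of 9 measured genes were higher and 0 lower in SHR, with a median log2 difference of 0.26. Nppa is itself in this list and enters the 5 and the median, as does Myl4, which the wall stress list also holds. Only 2 were higher without WKY array 3, 3 without SHR array 2 or SHR array 3, and 2 in a fit of the 7 arrays of 20 months alone. Their sum without Nppa was 2079 to 2424 in SHR and 1492 to 1886 in WKY, most of it from Pam, the enzyme that amidates peptides. Myl7, the atrial regulatory light chain, had intensities of 183, 45.3, 36.9 and 122 on the SHR arrays, against 31.6, 37.7 and 94 on the WKY arrays, with overlap (0.48, adjusted p = 0.42). Myl4, the atrial essential light chain, which the fetal ventricle also makes, was dim, with intensities of 40.1, 20.3, 22 and 40.0 on the SHR arrays, against 2.4, 3.5 and 11 on the WKY arrays (log2 difference 0.73 ± 0.11 SE, adjusted p = 4.32e-05). Their part in the Nppa difference was not tested.

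The differences at 20 months were compared with those at the earlier ages, which share no array with them. At 12 and 16 months, too, all WKY arrays had cocktail 2 and lot 2, and all SHR arrays had cocktail 1, with lot 1 or no lot recorded. Strain and cocktail therefore cannot be told apart at any age, and the same sign at several ages is not free of them. Of the 1263 probe sets, 1166 had the same sign at 12 months (92.3%) and 1215 at 16 months (96.2%). At 12 months 499 were called in the same direction, 39.5% of those called at 20 months and 60.6% of the 824 called at 12 months. At 16 months 779 were, 61.7% of those called at 20 months and 55.3% of the 1408 called at 16 months. There were 433 called the same way at all 3 ages and 418 called at 20 months only by this threshold, which does not show that they differed from the earlier ages.

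A direct test of the strain difference at 20 months against that at 12 months called 27 probe sets (0.371%), 24 of them upward, and 714 had an unadjusted p under 0.05. The count rested on single arrays: it was 14 without SHR array 1, 9 without SHR array 3, 4 without WKY array 3 and 5 without WKY array 4. With hybridization day as a random block it was 4. Counted as genes, 19 of 4172 were called (0.455%), and 9 of these were among the 54 matrix genes: Thbs4, Loxl1, Col1a2, Col5a2, Fn1, Eln, Postn, Ltbp2 and Ctsk. The strain difference of Thbs4 was 0.97 at 12 months, 1.96 at 16 months and 2.66 at 20 months, and the one at 20 months exceeded that at 12 months by 1.69 ± 0.23 SE, adjusted p = 0.000426. For Postn the strain difference was 0.33 at 12 months, 0.63 at 16 months and 1.20 at 20 months, and the excess was 0.87 ± 0.17 SE, adjusted p = 0.0198. Ltbp2 showed none at 12 months (-0.01 at 12 months, 0.27 at 16 months and 0.70 at 20 months). Elastin, Eln, lay on the other side at the earlier ages (-0.43 at 12 months, -0.16 at 16 months and 0.74 at 20 months), with a difference of differences of 1.17 ± 0.26 SE, adjusted p = 0.0483.

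Genes outside the matrix list were called in that test as well. Ech1 had a strain difference of -0.41 at 12 months, -0.90 at 16 months and -1.17 at 20 months, with a difference of differences of -0.76 ± 0.17 SE, adjusted p = 0.0483. Pfkp had 0.21 at 12 months, 0.49 at 16 months and 0.86 at 20 months (0.65 ± 0.15 SE, adjusted p = 0.0483). Rpl3l, a ribosomal protein of striated muscle, had 0.22 at 12 months, -0.56 at 16 months and -0.84 at 20 months (-1.07 ± 0.20 SE, adjusted p = 0.0174). Its other probe set was already lower in SHR at 12 months (-0.36 at 12 months, -0.48 at 16 months and -0.75 at 20 months). That probe set was not called in this test (-0.39 ± 0.15 SE, adjusted p = 0.34), so a change of sign with age rests on a single probe set. Acta1 was high at each age (1.14 at 12 months, 1.53 at 16 months and 1.53 at 20 months) and was not called in this test (0.39 ± 0.16 SE, adjusted p = 0.385), nor was Nppa (0.48 at 12 months, 1.34 at 16 months and 1.28 at 20 months; 0.79 ± 0.26 SE, adjusted p = 0.208). The median strain difference of the matrix list was 0.06 at 12 months, 0.19 at 16 months and 0.30 at 20 months. That of the oxidative phosphorylation list was -0.001 at 12 months, -0.14 at 16 months and -0.37 at 20 months, and that of the fatty acid list was -0.03, -0.19 and -0.29 at the same ages. The 3' over 5' ratios that did not overlap between the strains at 20 months were closer at 12 months, at 1.21 to 1.44 in SHR and 1.15 to 1.59 in WKY for beta-actin and 1.13 to 1.34 in SHR and 1.17 to 1.34 in WKY for Gapdh. At 16 months beta-actin stood at 1.09 to 1.37 in SHR and 1.55 to 1.86 in WKY, and Gapdh at 1.23 to 1.34 in SHR and 1.29 to 1.33 in WKY. Hexokinase stood at 2.37 to 3.29 in SHR and 3.65 to 5.16 in WKY at 12 months, without overlap. Their part in these medians was not tested. The median of all genes was 0.02 at 12 months, 0.03 at 16 months and 0.02 at 20 months. No probe set was called when 20 months was set against 16 months with limma, where 546 had an unadjusted p under 0.05. In both strains the arrays of 20 months shared a hybridization day with no array of an earlier age, so in these tests age and hybridization day cannot be told apart.

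**Figure D5:**
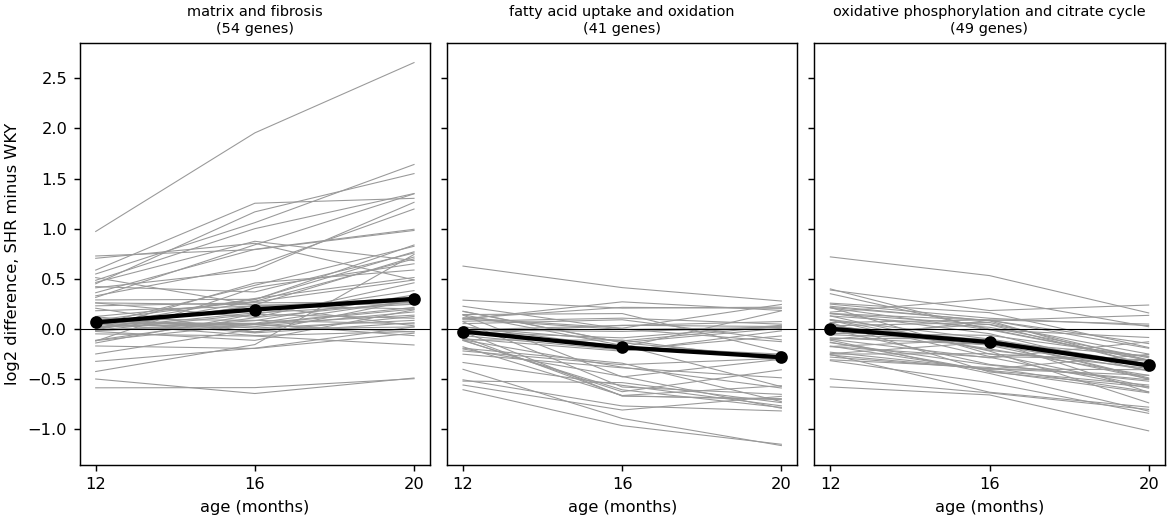
Strain difference (log2, SHR minus WKY) at 12, 16 and 20 months for each measured gene of 3 lists (grey) and the list's median (black). The matrix median was 0.06, 0.19 and 0.30 in order of age, that of oxidative phosphorylation -0.001, -0.14 and -0.37, and that of fatty acid oxidation -0.03, -0.19 and -0.29.

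How far probe sets of the same gene gave the same call limits the reading of single genes. Of 296 called genes with more than 1 probe set, 117 had another probe set called in the same direction. There were 14 genes with probe sets called in both directions, out of 136 genes with at least 2 called probe sets. They were Cd74, Csnk2a1, Fdx1, Homer2, Hsd17b4, Hsp90ab1, Kcnh2, Nap1l4, Ndufa6, RT1-Bb, Rxrg, Sod1, Sparc and Thra, and no direction is given for these genes as such. The counts of genes and of list members still include them, each by the call of its brightest probe set. Besides the cases stated above, at least 1 further probe set did not pass for the called genes Acsl1, Acta2, Bcl2l1, Cacnb2, Camk2n1, Cox8b, Cpt1b, Ctsl, Dcn, Fn1, Gnai2, Got2, Gstm1, Hadha, Hsp90b1, Ivd, Kcne1, Lamb2, Ldb3, Lox, Mdm2, Ndufb8, Odc1, Pgam1, Prdx3, Psma6, Psma7, Psmb2, Psmb5, Psmc2, Pygb, Sdc4, Slc8a1, Tap1 and Trim63. Of the 1263 called probe sets, 210 had no single gene symbol, and 6 of the 10 largest called differences without overlap were among them. They are given here by probe set alone.

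The largest falls of the whole comparison were in probe sets for which the annotation lists more than 1 symbol. Probe set rc_AA946368_at had intensities of 36.8, 37, 31.7 and 24.5 on the SHR arrays, against 413, 523 and 493 on the WKY arrays. The WKY mean was 14.7 times the SHR mean (log2 difference -2.98 ± 0.12 SE, adjusted p = 3.09e-15). Probe set rc_AA925752_at had intensities of 19, 20.3, 20.1 and 20.7 on the SHR arrays, against 249, 308 and 258 on the WKY arrays, and the SHR arrays lay within a narrow band (log2 difference -2.54 ± 0.09 SE, adjusted p = 1.47e-16). Another 3 probe sets with the same pair of symbols, AF072411_g_at, rc_AA799326_s_at and AF072411_at, were lower in SHR, with differences of -1.95, -1.54 and -1.19. Larger than these 3 was the fall of rc_AI176460_s_at, annotated with other symbols (log2 difference -2.53 ± 0.47 SE, adjusted p = 0.000368). Its values spread widely, at 11.1, 84.9, 133.4 and 164.1 on the SHR arrays and 237.1, 743.8 and 1309.0 on the WKY arrays. The strain difference of rc_AA946368_at was -2.69 at 12 months, -2.86 at 16 months and -2.98 at 20 months, so it was already present at the youngest age. Among the rises, X62951mRNA_s_at has no gene in the annotation. Its intensity was 262, 253, 326 and 216 on the SHR arrays, against 8.3, 6.5 and 8.9 on the WKY arrays, so it was bright on each SHR array and close to the bottom on each WKY array (log2 difference 2.88 ± 0.13 SE, adjusted p = 4.96e-15). Probe set rc_AI176456_at, with several symbols, had intensities of 233, 142, 142 and 109 on the SHR arrays, against 21.9, 15 and 14.9 on the WKY arrays (log2 difference 1.90 ± 0.25 SE, adjusted p = 4.24e-06). Whether sequence differences between the strains under the probes contribute to such differences was not tested.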

How the data were processed

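The authors measured left ventricular RNA on Affymetrix U34A arrays and deposited 1 linear intensity per probe set and array. The array type is per the file headers of the instrument records. Which program made the intensities, and how it scaled them, is not given in the sources used here. Every array had a 2% trimmed mean close to 50.1, and detection calls were not used. The deposited instrument records (other text) gave hybridization day, chip lot and cocktail.

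Of 8799 probe sets, 59 controls were left out. Of the other 8740, 7006 have 1 gene symbol, 308 several and 1426 none in the platform annotation. Only single symbols were named, and 6985 of these matched RefSeq (GRCr8).

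Probe sets were kept if above the 30th percentile on at least 3 arrays (7280 probe sets). Log2(intensity + 32) was fitted with limma 3.58.1 in R 4.3.3 over 6 groups of strain and age, with a trended eBayes prior and Benjamini-Hochberg adjustment. The fit was tested on simulated arrays with independent noise and no effect of day, lot, cocktail or RNA length. That test cannot speak to such effects. Genes were counted by their brightest probe set. The interaction tests compare strain differences between ages.

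The text names the 15 largest rises and 15 largest falls among called probe sets without overlap and with a mean of at least 50 in 1 group, from each list the 4 members of smallest p at most, the 6 largest interactions in each direction, and a short set of standard genes. Members of a list that are named beyond this were chosen after their values were seen. The comparison and all lists were chosen with earlier results of these data known. Replicate numbers did not pair the arrays: deviations of same-numbered SHR and WKY arrays correlated at -0.099, -0.2 and 0.177.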

Additional observations from a re-analysis of the deposited data

Results flagged for a closer look

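For 15 of the genes taken by the naming rule the strain difference at 20 months differed from that at 12 months by the interaction test in limma (adjusted p below 0.05). The difference of differences on the log2 scale (SHR minus WKY at 20 months, minus the same at 12 months) was positive for Myl7 (2.528), Thbs4 (1.687), Tsc22d1 (1.217), Eln (1.169), Loxl1 (1.102), Col1a2 (1.035), Myl4 (1.002), Ctss (0.868), Postn (0.867), Fn1 (0.781), Ltbp2 (0.708) and Pfkp (0.653). It was negative for Rpl3l (-1.066), Ech1 (-0.762) and Pllp (-0.69). Col5a2 and Ctsk, described above but not taken by that rule, were called in this test as well. The other probe sets of Rpl3l, Pfkp, Ltbp2, Fn1 and Myl7 were not called in it. Myl7, an atrial myosin light chain, was not called at 20 months itself. Its strain difference was -2.05 at 12 months, 0.19 at 16 months and 0.48 at 20 months. A second Myl7 probe set had -0.67 at 12 months, 0.35 at 16 months and 0.26 at 20 months. It was not called in the interaction test in limma (0.93 ± 0.25 SE, adjusted p = 0.092). On that probe set the WKY mean was 118 at 12 months, 47 at 16 months and 56.3 at 20 months. The SHR mean was 61.3, 68.5 and 74.5 at the same ages. Tsc22d1, a transcriptional regulator, had a strain difference of -0.57 at 12 months, 0.60 at 16 months and 0.65 at 20 months. Pllp, a myelin and membrane protein, had 0.12 at 12 months, -0.26 at 16 months and -0.57 at 20 months.

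In 6 named genes a single SHR array stood apart from the other 3. The array lay low for Amd1 at 14.4, Dusp6 at 22.2, Arc at 40.7 and Plat at 41.9, and high for Lyz2 at 752.7 and Aqp1 at 321.0. Chance alone marks about 1 in 20 groups in this way. For each of these genes the SHR arrays still did not overlap the WKY arrays.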

How the results depend on the processing

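The count of probe sets that differed at 20 months was 1263 and lay between 880 and 1297 over the alternatives tried, with 998 when hybridization day was a random block. With only the 7 arrays of 20 months it was 1041. Replicate number as a block gave 1198 with all 23 arrays and 880 with the 7 arrays. Leaving out 1 array at a time gave 906 to 1169. The count of 27 for 20 against 12 months was 17 with 16 added before log2, 16 with no filter, 69 with a mean intensity of at least 50 in 1 group and 4 with day as a random block. It was 21 with the replicate block and 4 to 35 with 1 array left out. The count of 0 for 20 against 16 months in limma (546 at an unadjusted p under 0.05) was 0 to 1 with 1 array left out, 1 without SHR array 3 and 1 without WKY array 2. The cause of these shifts was not tested. For single genes no alternative reversed a direction of a called difference. Alternative values of single genes and of list medians were counted together. Of these, 3147 kept a gene's call or left a list median within the spread between arrays. Another 109, all list medians, moved by more than that spread. For single genes 124 lost the call and 11 gained a call. Quantile normalization, cyclic loess and median centring moved the median of all probe sets by -0.042, -0.033 and -0.05. The list medians kept their sign in all alternatives for matrix (0.22 to 0.71), fatty acid oxidation (-0.57 to -0.23), oxidative phosphorylation (-0.44 to -0.28), wall stress (0.25 to 0.41), fibroblast markers (0.40 to 0.68) and macrophage markers (0.24 to 0.97). They changed sign for the sarcomere, calcium, adrenergic, oxidative stress, heat shock, apoptosis, clock, amino acid, endothelial, lymphocyte, erythroid, adipocyte, skeletal muscle and ribosomal lists.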
